A study of Rattus norvegicus with 24 samples.

Results

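Nr4a1, Nr4a2 and Nr4a3 encode the NR4A family of orphan nuclear receptors, and their transcripts were followed across all 24 hippocampal libraries of a study of glucocorticoid enhanced memory in male Sprague-Dawley rats. The members were taken by identifier from the table of gene counts, as ENSRNOG00000007607 for Nr4a1, ENSRNOG00000005600 for Nr4a2 and ENSRNOG00000005964 for Nr4a3. They are 3 of the 32883 identifiers in the table, and all 3 were among the 14838 genes that passed the filter on low counts. The symbols come from the rule that named the members, since the count table holds identifiers alone and the reference table of 47357 rat genes holds no identifier of that kind (0 matched). The study crossed training with corticosterone, the chief adrenal glucocorticoid in rats. There were 6 trained corticosterone, 6 untrained corticosterone, 5 trained vehicle and 7 untrained vehicle libraries. Each library came from dissected whole-tissue hippocampus. The labels give no age, task, dose or time of sampling and state no genetic change in any group. Separate rats are not stated for the numbered samples, and the p-values therefore describe the spread between samples, which may be technical.

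NR4A receptors are transcription factors without a known natural hormone that controls them in the way steroids control their receptors. Neuronal activity raises their transcripts within the first wave of immediate early genes, largely through the cAMP response element binding protein CREB. In mice, blocking NR4A function in forebrain neurons impairs long-term contextual memory. Nr4a1 (Nur77, NGFI-B) and Nr4a2 (Nurr1) can pair with retinoid X receptors, which Nr4a3 (NOR-1) does not do. All of them bind the same DNA element as monomers.

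Promoter windows were at hand for 2 members, Nr4a1 and Nr4a2, and are shown first. The promoter sequences used here held none for Nr4a3, so it was not analysed. The windows of Nr4a1 and Nr4a2 are the 250 bases before a RefSeq start position of each gene in rat build GRCr8. That build is later than the one used for the counts. Both windows lie inside the span of their gene, so neither start is the outer end of its gene and transcripts also start elsewhere. Other starts were not searched, and the matches and base content below hold for these windows alone. Capitals mark the core of the cAMP response element, CGTCA, or its reverse complement TGACG. The Nr4a1 window is chr7:134259888-134260137 on the plus strand and the Nr4a2 window is chr3:62104888-62105137 on the minus strand, each printed 5′ to 3′ in the direction of the gene.
Nr4a1: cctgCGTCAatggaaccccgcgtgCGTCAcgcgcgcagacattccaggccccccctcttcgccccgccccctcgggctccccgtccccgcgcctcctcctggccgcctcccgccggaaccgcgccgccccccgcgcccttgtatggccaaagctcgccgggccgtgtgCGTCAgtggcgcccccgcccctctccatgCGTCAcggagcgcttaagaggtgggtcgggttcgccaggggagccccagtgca
Nr4a2: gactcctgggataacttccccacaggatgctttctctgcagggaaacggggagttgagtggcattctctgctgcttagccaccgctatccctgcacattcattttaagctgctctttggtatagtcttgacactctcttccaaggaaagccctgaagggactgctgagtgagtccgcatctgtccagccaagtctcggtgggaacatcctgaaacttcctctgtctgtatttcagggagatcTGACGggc

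The Nr4a1 window held 4 matches to CGTCA, all on the strand of the gene. Their first bases stood 246, 226, 82 and 53 bases before the start. At least 1 match on either strand was found in 18.2% of the 33469 rat promoters of the same length, and 4 or more in 0.173% of them. Each of the 4 followed the letters TG, giving TGCGTCA. This longer word was chosen after the sequence was seen. It occurred in 1.66% of all promoters, and 1 promoter, that of Nr4a1, held 4. The Nr4a2 window held 1 match, on the other strand, 8 to 4 bases before the start. The Nr4a1 window was 74.8% G and C and the Nr4a2 window 52.0%, against a median of 51.2% over all promoters. The shares above are over all promoters and were not computed among those of like G and C content. For the Nr4a1 window they are therefore not a like comparison.

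Both windows were also searched on both strands for 4 other words. They were the full cAMP response element TGACGTCA (in 1.59% of all promoters), the NR4A monomer element AAAGGTCA (1.24%), the TATA box word TATAAA (12.9%) and the palindromic glucocorticoid response element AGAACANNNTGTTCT (0.012%). Neither window held any of the 4 (0 matches in each). These are matches of letters only, and the word CGTCA lies inside the full element.

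Sequencing depth was even across the study, with 13760331 to 16765088 reads in genes per library. Sample 41 is untrained vehicle by its label, which was followed, but its column in the table stands with those of trained vehicle rats. The first principal component of all genes carried 31.5% of the variance and set 8 libraries (6 corticosterone, 2 vehicle) apart from the other 16 (6 corticosterone, 10 vehicle). It was added to the model as an alternative fit. Since it comes from the same counts and is uneven over treatments, that fit may also remove part of a treatment difference. Marker genes of hippocampal neurons and of neighbouring tissues could not be looked up without gene names, so the tissue label was not checked against them.

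Nr4a1 transcript levels differed between the 4 groups by less than their spread within a group. Levels are given as CPM, read counts divided by a library total that TMM has corrected for composition. CPM is not divided by gene length, so levels are compared within a gene and not between genes. In trained corticosterone libraries Nr4a1 ran from 24.5 to 45.2 CPM with a median of 35.9 CPM. In untrained corticosterone libraries it ran from 32.97 to 52.4 CPM with a median of 37.6 CPM. The group ranges overlapped, and the lowest library of all (sample 33) as well as the highest (sample 4) came from corticosterone rats. The 5 trained vehicle libraries were at 30.8, 31.0, 37.8, 38.7 and 49.6 CPM. Untrained vehicle libraries ran from 33.7 to 47.0 CPM with a median of 38.2 CPM. The raw counts behind these values were 395 to 809 reads per library.

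Nr4a1 averaged 36.7 ± 7.80 CPM in the 6 trained and 39.2 ± 6.92 CPM in the 6 untrained corticosterone libraries (mean ± SD). The means were 37.6 ± 7.70 CPM in the 5 trained and 39.5 ± 5.25 CPM in the 7 untrained vehicle libraries. Untrained vehicle was highest and trained corticosterone lowest, and each group differed from its neighbour in this order by less than the SD of either. Averaged over training, the log2 fold change of corticosterone against vehicle was -0.02 (SE 0.10, edgeR adjusted p = 0.983). Its 95% interval ran from a 0.856-fold to a 1.14-fold level. For trained against untrained, averaged over treatment, the log2 fold change was -0.08 (SE 0.10, edgeR adjusted p = 0.999), with an interval of 0.819-fold to 1.09-fold.

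Nr4a2 was also spread widely within every group. Trained corticosterone libraries ran from 42.6 to 66.4 CPM with a median of 53.9 CPM, and untrained corticosterone libraries from 42.7 to 58.4 CPM with a median of 46.8 CPM. The trained corticosterone libraries fell into 3 between 60.6 and 66.4 CPM and 3 between 42.6 and 47.2 CPM. The 5 trained vehicle libraries were at 45.3, 46.4, 46.8, 53.3 and 71.0 CPM. Untrained vehicle libraries ran from 45.2 to 70.2 CPM with a median of 51.1 CPM. The highest single libraries were both from vehicle rats, sample 10 (trained) and sample 17 (untrained). Raw counts were 626 to 1139 reads.

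Nr4a2 averaged 54.3 ± 9.89 CPM in the 6 trained and 49.1 ± 7.05 CPM in the 6 untrained corticosterone libraries (mean ± SD). It averaged 52.6 ± 10.8 CPM in the 5 trained and 54.1 ± 8.40 CPM in the 7 untrained vehicle libraries. Trained corticosterone was highest and untrained corticosterone lowest. Neighbours in the order again differed by less than the SD of either. The log2 fold change of corticosterone against vehicle was -0.05 averaged over training (SE 0.09, edgeR adjusted p = 0.951, 95% interval 0.849-fold to 1.10-fold). That of training was 0.05 averaged over treatment (SE 0.09, edgeR adjusted p = 0.999, 95% interval 0.909-fold to 1.18-fold).

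Nr4a3 was the member whose corticosterone and vehicle libraries lay farthest apart, though the groups overlapped. Trained corticosterone libraries ran from 56.1 to 74.4 CPM with a median of 67.4 CPM, and untrained corticosterone libraries from 60.7 to 90.5 CPM with a median of 69.1 CPM. The 5 trained vehicle libraries were at 69.1, 70.6, 73.5, 76.3 and 88.7 CPM. Untrained vehicle libraries ran from 63.4 to 94.8 CPM with a median of 83.7 CPM. Of the 12 libraries with the highest Nr4a3, 3 were corticosterone and 9 vehicle. For Nr4a1 and for Nr4a2 the split was 5 and 7. Raw counts of Nr4a3 were 879 to 1442 reads.

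Mean Nr4a3 was 66.8 ± 6.83 CPM in the 6 trained and 72.4 ± 12.4 CPM in the 6 untrained corticosterone libraries (mean ± SD), below both vehicle groups. It was 75.6 ± 7.80 CPM in the 5 trained and 82.0 ± 10.5 CPM in the 7 untrained vehicle libraries. Neighbouring groups in this order differed by less than the SD of either. Over both training states it was 69.6 ± 10.004 CPM in corticosterone and 79.3 ± 9.67 CPM in vehicle libraries (SD, n = 12 each). The log2 fold change of corticosterone against vehicle, averaged over training, was -0.18 (SE 0.07), a level 0.883-fold that of vehicle with a 95% interval of 0.796-fold to 0.980-fold. The unadjusted edgeR p was 0.0211 and the adjusted p over all genes 0.414, so the difference did not pass. Of the 14838 genes tested, 754 had a smaller p. With the first principal component in the model the log2 fold change was -0.14 (unadjusted p = 0.0759, edgeR adjusted p = 0.617). In bulk tissue, fewer cells with the transcript and less transcript per cell cannot be told apart.

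**Figure D1:**
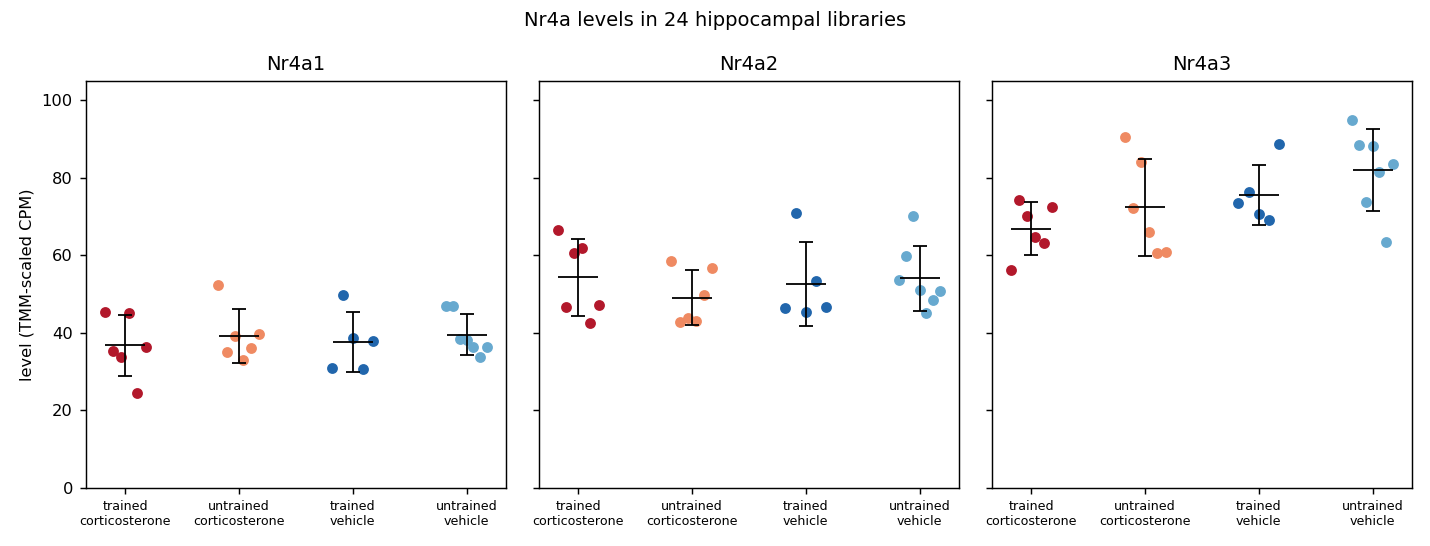
Level of Nr4a1, Nr4a2 and Nr4a3 in TMM-scaled CPM in each of the 24 libraries (points), with the mean and SD of each group (bars). Every pair of groups overlaps for each gene, and mean Nr4a3 is 66.8 CPM in trained corticosterone and 82.0 CPM in untrained vehicle libraries. CPM is not scaled for gene length, so panels are not compared with each other.

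None of the members passed for corticosterone averaged over training (0 of 3, edgeR quasi-likelihood test, adjusted p under 0.05), a contrast in which 0.93% of all genes tested did (138 of 14838). At an unadjusted p under 0.05, 1 of the 3 was lower, against 3.84% of all genes. Within untrained rats 0 of 3 passed (0.357% of all genes), and the log2 fold changes of corticosterone against vehicle were -0.01 (SE 0.13) for Nr4a1, -0.14 (SE 0.12) for Nr4a2 and -0.18 (SE 0.10) for Nr4a3. The edgeR adjusted p-values were 0.997, 0.872 and 0.807 in that order. Within trained rats 0 of 3 passed (0.162% of all genes), with log2 fold changes of -0.03 (SE 0.15), 0.05 (SE 0.13) and -0.18 (SE 0.11) in the same order. The edgeR adjusted p-values there were 0.980, 0.967 and 0.745. With 1 library left out at a time, the estimate for Nr4a3 ran from -0.26 (without sample 4) to -0.13 in untrained rats and from -0.21 to -0.11 (without sample 35) in trained rats.

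Whether the corticosterone effect depended on training was tested with the interaction, taken as the trained log2 fold change of corticosterone minus the untrained one. It was -0.02 (SE 0.20, edgeR adjusted p = 0.993) for Nr4a1, 0.19 (SE 0.18, edgeR adjusted p = 0.962) for Nr4a2 and 0.00099 (SE 0.15, edgeR adjusted p = 0.9998) for Nr4a3. None of the 3 passed (0), and neither did any other gene (0%, with an unadjusted p under 0.05 for 634 of 14838). For the interaction, 95% intervals ran from a ratio of 0.744 to 1.31 for Nr4a1, from 0.876 to 1.48 for Nr4a2 and from 0.813 to 1.23 for Nr4a3. An interaction within these bounds could not be told from none with this number of libraries.

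For training, 0 of 3 members and 0% of all genes passed averaged over treatment (485 genes at an unadjusted p under 0.05), within corticosterone rats (903 genes) and within vehicle rats (338 genes). For Nr4a3 the log2 fold change of trained against untrained was -0.12 averaged over treatment (SE 0.07, edgeR adjusted p = 0.999), -0.12 within corticosterone rats (SE 0.10, edgeR adjusted p = 0.871) and -0.12 within vehicle rats (SE 0.10, edgeR adjusted p = 0.9999). Single libraries moved these values, to -0.041 within corticosterone rats without sample 4 and to -0.18 within vehicle rats without sample 35. Nr4a2 had 0.15 within corticosterone rats (SE 0.13, edgeR adjusted p = 0.871) and -0.04 within vehicle rats (SE 0.13, edgeR adjusted p = 0.9999). Nr4a1 had -0.09 (SE 0.14, edgeR adjusted p = 0.934) and -0.07 (SE 0.14, edgeR adjusted p = 0.9999) in those contrasts. The 95% intervals within either treatment reached from 0.769-fold to 1.33-fold over the 3 members.

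The groups at the ends of the Nr4a3 order, trained corticosterone and untrained vehicle, differ in both factors, and this contrast was added after their levels were seen. The log2 fold change was -0.29 (SE 0.10, unadjusted p = 0.00625, edgeR adjusted p = 0.368), a 0.815-fold level with an interval of 0.708-fold to 0.938-fold. It did not pass, as for 0 of 3 members against 0.398% of all genes. At an unadjusted p under 0.05, 1 of the 3 members was lower, against 3.34% of genes, and 246 genes had a smaller p. These groups were picked as the ends of the Nr4a3 order, which favours a small p and an interval that leaves out no change. The other genes were not picked in that way, so their share and number are not a like comparison. Of the untrained vehicle libraries, 5 of 7 lay above every trained corticosterone library. The same contrast gave -0.10 (SE 0.13, edgeR adjusted p = 0.912) for Nr4a1 and 0.0037 (SE 0.12, edgeR adjusted p = 0.997) for Nr4a2.

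**Figure D2:**
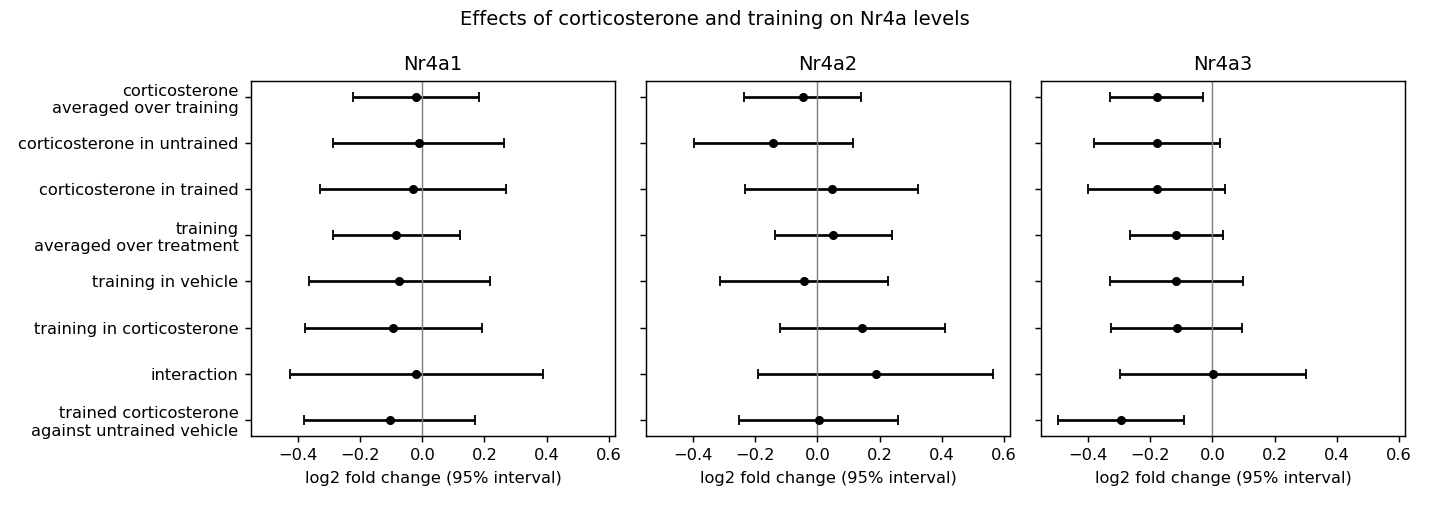
Log2 fold change (points) with its 95% interval (bars) from the edgeR fit of 24 libraries, for 8 contrasts in each Nr4a gene, with corticosterone over vehicle and trained over untrained. The intervals of Nr4a1 and Nr4a2 include 0 in all 8. Before adjustment over all genes, those of Nr4a3 leave it out for corticosterone averaged over training and for trained corticosterone against untrained vehicle. The last contrast was added after the levels were seen, from the ends of the Nr4a3 order.

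Levels of the Nr4a genes varied among libraries of 1 group well beyond counting error. The biological coefficient of variation was 16.6% for Nr4a1, 15.5% for Nr4a2 and 12.3% for Nr4a3, while the counts alone would give 4.11%, 3.51% and 2.95%. The median over the 13795 genes that averaged 1 CPM or more was 8.22%. The share of those genes with a smaller coefficient was 84.6% for Nr4a1, 82.3% for Nr4a2 and 73.8% for Nr4a3. The division into 4 groups accounted for 4.49% of the variation of Nr4a1 between libraries, 6.59% for Nr4a2 and 28.7% for Nr4a3, against a median of 11.4% over genes. These shares are not adjusted for the number of groups, so chance differences between group means add to them.

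Nr4a1 and Nr4a2 rose and fell together across libraries of the same group. With group means removed, Pearson's r of their log2 CPM over 24 libraries was 0.68 (permutation test, two-sided, p = 0.00128, adjusted p = 0.00768) and Spearman's rho was 0.55 (permutation p = 0.0107, adjusted p = 0.0320, over 6 tests). Without samples 33 and 4, those farthest from the median of Nr4a1, r was 0.60. Sample 10 was high and sample 33 low for both genes. With the first principal component also removed, r was 0.66 (adjusted permutation p = 0.0069). Within single groups r was 0.78 in trained corticosterone, 0.77 in untrained corticosterone and 0.41 in untrained vehicle libraries (n = 6, 6 and 7, no test). In the same order rho was 0.83, 0.89 and 0.79. Trained vehicle had 5 libraries, and no coefficient was computed within a group of fewer than 6, for this pair or the others. Library depth and dissection are shared by all genes of a library.

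The correlations of Nr4a3 with the other members did not pass over all 24 libraries. With Nr4a1, r was 0.35 and rho 0.34 (permutation p = 0.0985 and 0.124, adjusted p = 0.186 each), and r was 0.22 without samples 33 and 4. Within single groups r of this pair was -0.25 in trained corticosterone, 0.67 in untrained corticosterone and 0.74 in untrained vehicle libraries (n = 6, 6 and 7, no test). In the same order rho was -0.26, 0.37 and 0.71. In untrained vehicle libraries r was above that of Nr4a1 with Nr4a2 (0.41), but rho was below that of Nr4a1 with Nr4a2 (0.79). For this pair, 1 of 24 fits with a single library left out passed. It was the one without trained corticosterone sample 3, with r = 0.50 (adjusted permutation p = 0.0217). That sample had the lowest Nr4a3 of all libraries and a high Nr4a1. With Nr4a2, r was -0.10 and rho -0.13 (permutation p = 0.637 and 0.562, adjusted p = 0.637 each), and r was -0.055 without samples 10 and 17. That the correlation of Nr4a1 with Nr4a2 differs from its correlation with Nr4a3 was not tested.

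**Figure D3:**
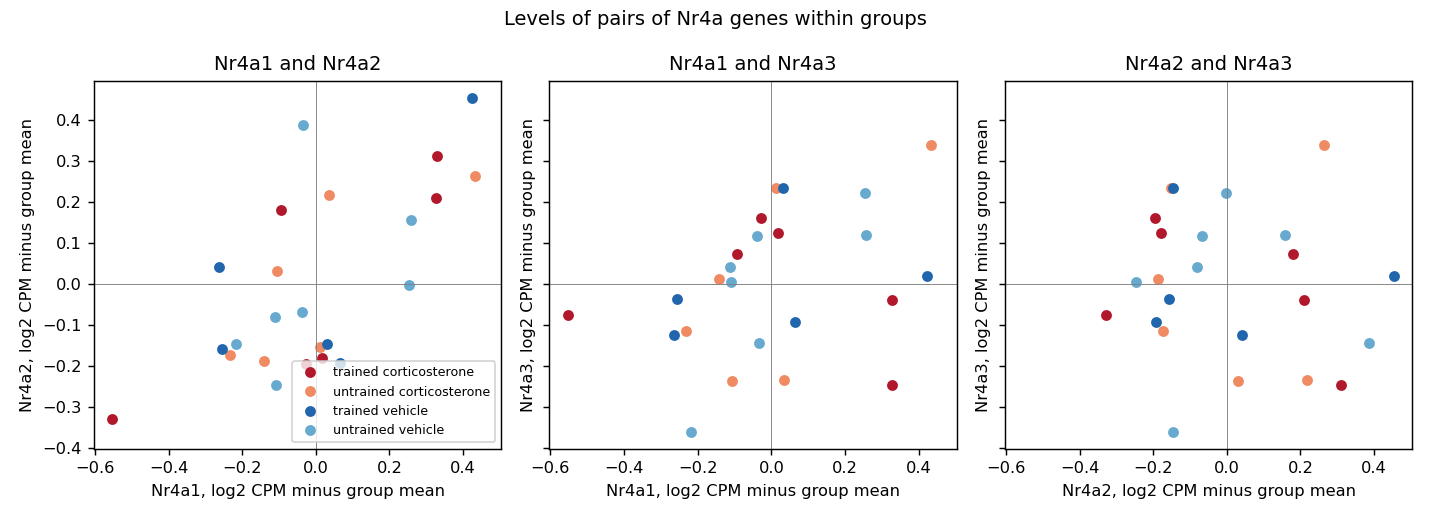
Log2 CPM of 1 Nr4a gene against another in the 24 libraries, each minus its group mean, coloured by group. The points of Nr4a1 and Nr4a2 run upwards with r = 0.68, and those of the other pairs scatter with r = 0.35 and -0.10.

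The same measure was used to rank all genes that averaged 1 CPM or more by likeness to each member. Nr4a2 was 148th of 13794 genes in likeness to Nr4a1, and Nr4a1 was 229th in likeness to Nr4a2. Nr4a3 was 1968th for Nr4a1 and 8262nd for Nr4a2. Each gene therefore had many transcripts that followed it more closely than its own family did.

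ENSRNOG00000019317 was the gene most like Nr4a2, with r = 0.93 over the 24 libraries and a mean of 4.40 CPM. ENSRNOG00000058476 was the gene most like Nr4a1, with r = 0.86 and a mean of 165 CPM. The closest gene to Nr4a3 had r = 0.83 and a mean of 155 CPM. With the first principal component removed these values were 0.92, 0.80 and 0.84. No name or function is given for these identifiers, since no table used here pairs them with one.

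An r of at least 0.70 was reached by 179 genes for Nr4a2, by 94 for Nr4a1 and by 57 for Nr4a3. With the first principal component removed the numbers were 165, 8 and 49, in the same order. Of the 100 genes most like each member, Nr4a1 and Nr4a2 shared 13, and Nr4a3 shared 0 with either. Unrelated lists of 100 from 13794 genes would also share few or none, so the 0 is not read as a result. Members that correlate with each other share like genes in part for that reason, so the 13 is not a separate result. None of the 5 genes most like each member passed in any contrast (edgeR, smallest adjusted p = 0.459). Over these contrasts 0% to 0.93% of all genes tested passed, so this is not read as a result about those genes.

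**Figure D4:**
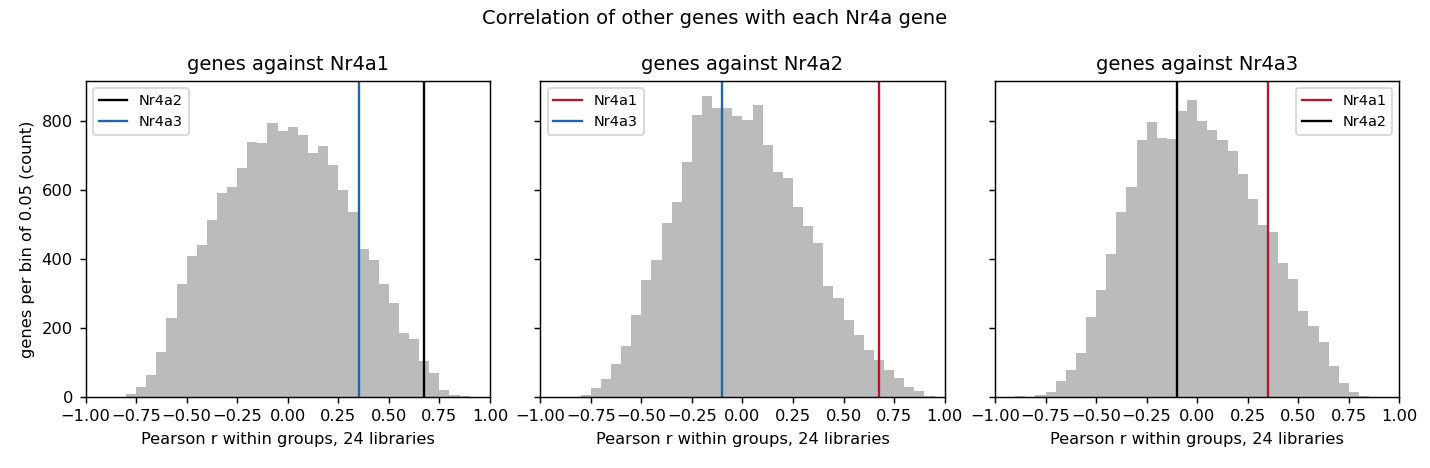
Number of genes by Pearson's r with Nr4a1, Nr4a2 and Nr4a3 within groups, over 24 libraries, in bins of 0.05. Lines mark the other members, with Nr4a2 in the upper tail for Nr4a1 (r = 0.68) and Nr4a3 near the middle for Nr4a2 (r = -0.10).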

How the data were processed

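The authors deposited raw counts of reads per Ensembl gene identifier for 24 libraries, made with STAR 2.7.0b and HTSeq 0.6.1 on build rn6, per the submitters' processing notes. How reads were assigned by strand, and with which annotation release, is not given in the sources used here; reads of overlapping or antisense genes cannot be told apart. The 5 summary rows of the read counter, on average 39.0% of a column total, were left out. Groups came from the sample titles. Genes were filtered with filterByExpr, scaled with TMM and fitted in edgeR 4.0.16 (R 4.3.3) for a quasi-likelihood F-test in 1 model of 4 group means. P-values were adjusted by Benjamini-Hochberg over 14838 genes. Standard errors were taken from the F statistic, and intervals are 95% intervals on its degrees of freedom. Correlations used log2 CPM with a prior count of 2, and permutation tests drew 100000 resamples within groups. Library pairs of a group differed beyond sampling noise (smallest chi-square per degree of freedom 4.14). DESeq2 1.42.0 and limma 3.58.1 were alternatives. Scripts were tested on simulated data. The members and lists were chosen with earlier results of these data known. Named genes are the members and, by r, the gene most like Nr4a1 and Nr4a2. The lists of activity, CREB and glucocorticoid genes and of cell type markers could not be looked up, since 0 identifiers matched a symbol.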

Additional observations from a re-analysis of the deposited data

Results flagged for a closer look

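Untrained corticosterone sample 4 had 52.4 CPM of Nr4a1, and the next library of its group had 39.7 CPM. The gap was 0.652 of the range of the 6 libraries, more than Dixon's test allows at 95%. It was the only one of 12 groups examined (3 genes in 4 groups) past that limit. Chance gives about 1 in 20 for each single test, so 1 flag among 12 tests is not unusual. The same sample was also highest of its group for Nr4a2 (58.4 CPM) and Nr4a3 (90.5 CPM). Without it, the log2 fold change of corticosterone against vehicle in untrained rats was -0.12 for Nr4a1 and -0.26 for Nr4a3 (edgeR adjusted p = 0.844 and 0.469).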

How the results depend on the processing

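None of the 783 refits of the 3 genes in 8 contrasts (DESeq2, limma-voom, other scalings, no filter, covariates, fewer groups, single libraries left out) called a member (0, smallest adjusted p = 0.162). Nr4a3 kept its negative log2 fold change for corticosterone averaged over training in all 32 of its alternatives, from -0.22 to -0.14, with an unadjusted p under 0.05 in 30 of them. The exceptions were the fit with the first principal component (edgeR unadjusted p = 0.0759, adjusted p = 0.617) and the one without trained vehicle replicate 35 (edgeR unadjusted p = 0.0562, adjusted p = 0.583). Without sample 41 its adjusted p was 0.505.

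The signs that changed belonged to effects near 0, and the cause was not tested. With the first principal component the log2 fold change of Nr4a1 was 0.074 for corticosterone averaged over training, 0.071 in untrained and 0.076 in trained rats, and its interaction was 0.0054, against 0.012 with the sample number as covariate. With upper-quartile factors the interaction of Nr4a3 was -0.0075. The Nr4a2 difference of trained corticosterone against untrained vehicle was -0.0033 with those factors, -0.0011 with runs of sample numbers as a factor and -0.0043 with limma-voom.

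Leaving out 1 library at a time, corticosterone averaged over training gave -0.074 to 0.038 for Nr4a1 and -0.080 to 0.017 for Nr4a2. Nr4a1 gave -0.12 to 0.035 in untrained and -0.10 to 0.090 in trained rats, -0.16 to 0.0068 for training in corticosterone rats and -0.087 to 0.10 for the interaction. Nr4a2 gave -0.019 to 0.18 for corticosterone in trained rats, -0.017 to 0.088 for training averaged over treatment, -0.18 to 0.030 for training in vehicle rats and -0.062 to 0.077 for trained corticosterone against untrained vehicle. The interaction of Nr4a3 ran from -0.045 to 0.078. The r of Nr4a1 and Nr4a2 ran from 0.60 to 0.75 and passed throughout. That of Nr4a1 and Nr4a3 ran from 0.21 to 0.50, and that of Nr4a2 and Nr4a3 from -0.26 to 0.00047.

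Genes called for corticosterone in untrained rats numbered 53, but 87 with DESeq2 and 33 or 34 without untrained vehicle replicate 7 or 41 or untrained corticosterone replicate 29 or 39. In trained rats they numbered 24, but 60 with DESeq2, 13 with only the trained groups fitted and 14 without trained vehicle replicate 10. For trained corticosterone against untrained vehicle they numbered 59, but 92 with DESeq2. DESeq2 and limma-voom called 0 genes for the interaction and for training. No number is shared between groups to pair samples, but with runs of sample numbers as a factor Nr4a3 had -0.19 for corticosterone averaged over training (edgeR adjusted p = 0.523). Depth was 395 reads or more per library and gene, so the spread between libraries and not counting set the precision.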
